A study of Caenorhabditis elegans with 8 samples.

Results

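Cytosolic ribosomal protein genes were followed in young adult Caenorhabditis elegans in which CstF50 had been targeted by RNAi. The group holds every gene whose name begins with rpl-, for the large subunit, or rps-, for the small subunit. There were 76 such genes among the 44968 rows listed for poly(A) RNA, 45 of the large and 31 of the small subunit, and all 76 were found among the 25640 genes listed for rRNA-depleted RNA. By the current RefSeq list the name rule also takes in rsl-24D1, here called rpl-24.2, the worm counterpart of a nuclear factor that helps assemble the large subunit in yeast.

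The study had 8 libraries in 4 groups of 2: CstF50 RNAi and wild type, each as poly(A)-selected RNA and as rRNA-depleted RNA. The CstF50 gene is cpf-1, and the poly(A) headers give the RNAi as cpf-1 RNAi and wild type as the strain N2 on the empty vector L4440. All animals were synchronized and grown in liquid culture, and whole animals were extracted, so fewer cells of a type and less RNA per cell cannot be told apart. No label says that the 2 libraries of a group came from separate cultures, so p-values measure only the spread between these libraries, which may be technical.

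Each ribosome carries a copy of nearly every ribosomal protein, bound to ribosomal RNA in a large or a small subunit. Their mRNAs are short and among the most abundant in animal cells, and they are known to be made in nearly all tissues. Introns of many of these genes also hold small nucleolar RNAs (snoRNAs), which are cut out of the intron and guide chemical modification of ribosomal and other RNAs. CstF50 belongs to the cleavage stimulation factor, a complex that acts where the 3' ends of mRNAs are cut and polyadenylated.

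The values come with different limits in the 2 kinds of RNA. For poly(A) RNA the authors' deposited table gives 1 FPKM per group and a Cuffdiff q-value, and the depth of these libraries is unknown. For rRNA-depleted RNA the authors' deposited table names its groups only condition A and condition B, without saying which is wild type, and gives mean normalized counts with a DESeq adjusted p-value. Whole counts per library were recovered from those means and summed to 35396288 and 14949932 in B and to 7167870 and 2462768 in A, without the most abundant genes. The means of B did not pass a check on whole-read steps, so all values per library of B below carry that limit. Ribosomal RNA genes took 2.59% of the normalized counts of condition B and 67.2% of those of condition A. In B this share lay in the gene T27C5.18, which took 5.19% in A. Whether the other ribosomal RNA genes were counted alike in both conditions was not tested, so these shares may not measure ribosomal RNA content. The target cpf-1 had 67.8 FPKM in CstF50 RNAi and 50.5 FPKM in wild type in the authors' deposited table (Cuffdiff q = 0.613), and thus was not lower in the libraries labelled RNAi. In rRNA-depleted RNA the authors' deposited table gives it 8662 normalized counts in B and 1695 in A (DESeq adjusted p = 0.00296). Markers of other tissues were counted as well. Over all genes tested in poly(A) RNA, 3.12% were called higher and 13.6% lower in RNAi. Over all genes in rRNA-depleted RNA, 5.54% were called higher and 2.77% lower in B. In poly(A) RNA 10 of 15 tested sperm markers were called higher in RNAi, with summed levels of 758 FPKM in RNAi and 72.0 FPKM in wild type, where spe-9 was listed at 0. In rRNA-depleted RNA 17 of 19 sperm markers were called higher in B, with sums of 9093 normalized counts in B and 229 in A, where gsp-3, gsp-4, msp-3, msp-36 and ssq-4 were at 0. Of the cuticle markers, 6 of 11 were called higher in RNAi (sums 11561 and 5211 FPKM in RNAi and wild type), and 8 of 12 in B (sums 51550 and 29684 normalized counts in B and A), with rol-6 and sqt-1 at 0 in A. None of the 12 oocyte markers was called in either kind of RNA. Of the muscle markers, 1 of 7 was called higher and 2 lower in RNAi (sums 4405 and 3677 FPKM in RNAi and wild type), and 7 of 10 higher in B (sums 44958 and 19799 normalized counts in B and A). Of the intestine markers, 2 of 8 were called lower in RNAi (sums 20479 and 28847 FPKM), and 2 of 10 lower and 1 higher in B (sums 994506 and 754545 normalized counts). Of the neuron markers, 2 of 5 were called lower in RNAi (sums 319 and 581 FPKM), and 2 of 9 in B (sums 34010 and 147555 normalized counts). The part of these shifts in the results below was not tested.

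In poly(A) RNA the ribosomal protein genes made up 42.4% of the summed FPKM in CstF50 RNAi and 38.6% in wild type in the authors' deposited table. Of the 76 genes, 73 had been tested by the authors, and 6 of these were called higher in RNAi and none lower at a Cuffdiff q under 0.05. Over all 8513 tested genes the same calls were made for 3.12% higher and 13.6% lower. Among the 296 tested genes of at least 1000 FPKM, a closer match in level, the shares were 11.1% higher and 9.12% lower. At an unadjusted p under 0.05, 11 ribosomal protein genes were higher and 4 lower.

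The 6 genes called higher were rpl-25.1, rpl-26, rpl-11.1 and rpl-13 of the large subunit and rps-14 and rps-26 of the small subunit. The highest rise was in rpl-25.1 (chromosome X, 4715147 to 4715772, ce10), a paralogue of the uL23 family that lies at the exit of the peptide tunnel in yeast ribosomes. It had 4749 FPKM in CstF50 RNAi and 768 FPKM in wild type in the authors' deposited table. This is a 6.19-fold difference, or 2.63 on the log2 scale with a standard error implied by the authors' p-value of 0.47 (Cuffdiff q = 5.6e-06).

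The rpl-26 gene (chromosome II, 8602549 to 8603530, ce10), for a large-subunit protein of the uL24 family, had 13797 FPKM in RNAi and 2246 FPKM in wild type in the authors' deposited table. Its log2 fold change was 2.62 (implied SE 0.57, Cuffdiff q = 0.000491). It is the neighbour of the RNAi target: in assembly WBcel235 the 2 genes lie on opposite strands with 344 bases between them. In rRNA-depleted RNA, where cpf-1 was 5.11-fold higher in B, rpl-26 did not pass the test.

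The rpl-11.1 gene (chromosome V, 3585312 to 3586063, ce10) encodes a protein of the uL5 family, which contacts the 5S ribosomal RNA. The authors' deposited table gives it 7836 FPKM in RNAi and 2340 FPKM in wild type, which is 1.74 on the log2 scale (implied SE 0.50, Cuffdiff q = 0.00833). For rpl-13 (chromosome I, 3788037 to 3788914), another large-subunit gene, the authors' deposited table gives 13605 FPKM in RNAi and 4436 FPKM in wild type (Cuffdiff q = 0.0212). Both small-subunit genes stood closer to the threshold. For rps-14, whose protein of the uS11 family lies on the platform of the small subunit, the authors' deposited table gives 15433 FPKM in RNAi and 4780 FPKM in wild type (Cuffdiff q = 0.0407). For rps-26, whose protein lies near the mRNA exit channel in yeast, the authors' deposited table gives 9921 FPKM in RNAi and 3892 FPKM in wild type (Cuffdiff q = 0.0482).

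Just outside the threshold were rpl-2, with 3088 FPKM in RNAi and 1393 FPKM in wild type in the authors' deposited table (Cuffdiff q = 0.0620), and rpl-9. The rpl-9 gene had the lowest fold change of the group, with 8395 FPKM in RNAi and 22259 FPKM in wild type in the authors' deposited table (log2 fold change -1.41, implied SE 0.59, Cuffdiff q = 0.0759). After it came rpl-37, with 486 FPKM in RNAi and 1158 FPKM in wild type, and rps-24, with 6715 FPKM in RNAi and 15118 FPKM in wild type in the authors' deposited table. Neither passed the test (Cuffdiff q = 0.0936 and 0.105).

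**Figure D1:**
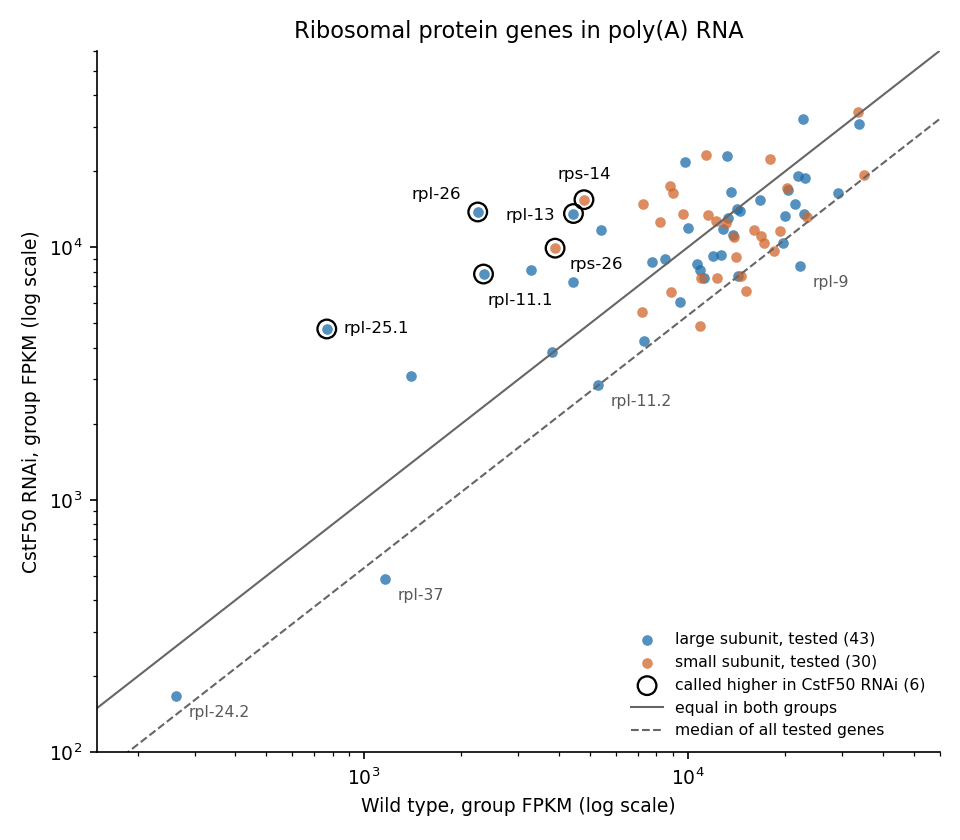
Group FPKM of the 73 tested ribosomal protein genes in poly(A) RNA, with CstF50 RNAi on the vertical axis and wild type on the horizontal axis, both on log scales. Points are genes, circles mark the 6 called higher in RNAi, the solid line marks equal values and the dashed line the median gene; 66 of the 73 lie above the dashed line, and 29 lie above the solid line.

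For 3 genes the authors' test gave no call. The tests of rps-3 and rpl-31 are marked as failed. For rps-3, whose protein lines the mRNA entry of the small subunit, the authors' deposited table lists 10431 FPKM in RNAi and 1973 FPKM in wild type. For rpl-31 the authors' deposited table lists 17975 FPKM in RNAi and 7093 FPKM in wild type. The rpl-42 gene was near silent, at 0.722 FPKM in RNAi and listed at 0 in wild type, and was not tested.

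Most of the other genes had somewhat lower values in RNAi, but by less than the median gene. The log2 fold changes of the 73 tested ribosomal protein genes ran from -1.41 to 2.63 with a median of -0.25, and 29 were above 0 and 44 below. The median was -0.90 over all 8244 tested genes with values above 0 and -0.34 over those of at least 1000 FPKM. Relative to the median gene, 66 of 73 were higher, and 17 passed the test as higher and none as lower (normal deviate with Benjamini-Hochberg adjustment, background 5.63% higher and 0.510% lower). The count of higher calls therefore rests on the scale: it was 6 as deposited and 17 relative to the median gene. The share of calls relative to the median gene was not counted for genes of at least 1000 FPKM, whose median was nearer that of the ribosomal protein genes.

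By subunit, the calls were spread over both. Of the large subunit 4 of 43 tested genes were called higher, with a median log2 fold change of -0.13, and of the small subunit 2 of 30, with a median of -0.36. The wild-type levels of the tested genes ran from 263 FPKM for rpl-24.2 to 35080 FPKM for rps-28 in the authors' deposited table. Levels in RNAi ran from 167 FPKM for rpl-24.2 to 34303 FPKM for rps-21 in the authors' deposited table. The medians were 11745 FPKM in RNAi and 12344 FPKM in wild type.

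The loci behind these values limit some of them. For 33 of the 76 genes the authors' locus is shared with other rows, and 3 of the 6 called genes, rpl-26, rps-14 and rps-26, are among those. The calls of rpl-25.1, rpl-11.1 and rpl-13 come from loci of their own. With the authors' p-values adjusted over every row, tested or not, rpl-13, rps-14 and rps-26 lost their calls, and 3 higher calls were left.

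In 2 of 3 paralogue pairs the copies held different shares in the RNAi and wild-type poly(A) values, without a test of the share itself. Pairs were taken as genes whose names differ only in a final digit after a point, and the 3 were all of the large subunit. In the rpl-25 pair, rpl-25.1 held 26.6% of the summed FPKM in RNAi and 5.45% in wild type. Its partner rpl-25.2 (chromosome I) had 13077 FPKM in RNAi and 13315 FPKM in wild type in the authors' deposited table (Cuffdiff q = 0.976). The log2 fold change of rpl-25.2 was -0.03 with an implied SE of 0.53, beside 2.63 for rpl-25.1.

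In the rpl-11 pair the more abundant copy differed between the groups. The rpl-11.1 copy held 73.3% of the pair's FPKM in RNAi and 30.7% in wild type. Its partner rpl-11.2 (chromosome X) had 2847 FPKM in RNAi and 5282 FPKM in wild type in the authors' deposited table. That is -0.89 on the log2 scale (implied SE 0.50) and did not pass the test (Cuffdiff q = 0.188). In the rpl-24 pair the shares stayed close, with 98.0% for rpl-24.1 in RNAi and 97.6% in wild type. Both of its genes were below 0 on the log2 scale, rpl-24.1 at -0.43 and rpl-24.2 at -0.66, and neither passed the test.

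The per-library counts of rRNA-depleted RNA gave a narrower range of shares. Per base of transcript, rpl-25.1 held 12.90% and 12.01% of its pair in the libraries of B, and 8.65% and 9.31% in those of A. It had 1266 and 1329 normalized counts in the libraries of B and 847 and 951 in those of A, a log2 fold change of 0.53 that did not pass the test (DESeq adjusted p = 0.123), though it was called higher by limma-voom on the recovered counts (adjusted p = 0.00601). The rpl-11.1 copy held 85.9% and 86.5% of its pair in B and 89.2% and 90.0% in A. Its partner rpl-11.2 had 1859 and 1688 normalized counts in B and 1645 and 1702 in A, and these overlapped. The rpl-24.1 copy held 85.6% and 87.3% of its pair in B and 88.8% and 90.3% in A, but its row also takes in a snoRNA, described below. In each pair the shares in B and A did not overlap. Such separation was common for single genes. Among 2805 genes of at least 1000 normalized counts, both libraries of B lay below both of A in 33.0% and above in 48.4%. How reads that match both copies of a pair were assigned is not given in the sources used here, so the split within a pair is uncertain.

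**Figure D2:**
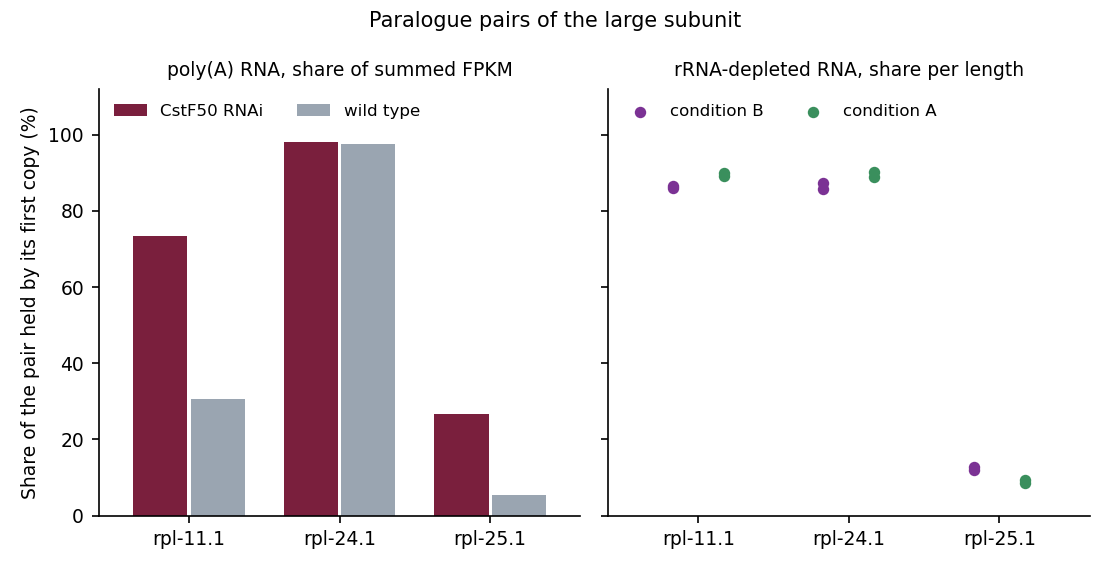
Share in percent of each large-subunit paralogue pair that its first copy held. Bars on the left are shares of summed group FPKM in poly(A) RNA for CstF50 RNAi and wild type; points on the right are shares per transcript length in each rRNA-depleted library of condition B and condition A. The rpl-11.1 share was 73.3% in RNAi and 30.7% in wild type, and the rpl-24.1 shares lie close together.

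In rRNA-depleted RNA, 11 ribosomal protein genes were called lower in condition B than in condition A and none higher at a DESeq adjusted p under 0.05. The background over all 25640 genes was 2.77% lower and 5.54% higher. Among the 3078 genes of at least 1000 normalized counts, 9.52% were lower and 12.1% higher. The genes rps-2 and rpl-25.1 were higher at an unadjusted p under 0.05. The 11 genes were rps-12, rps-29, rps-13, rps-28 and rps-17 of the small subunit and rpl-39, rpl-2, rpl-36, rpl-41, rpl-29 and rpl-38 of the large subunit. None of them was among the 6 genes called in poly(A) RNA. With lists this short, the lack of a shared gene is no result about these genes. Since the conditions carry no group names, the directions in the 2 kinds of RNA cannot be set against each other.

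Counts per library could be recovered for 10 of these 11 genes, and in each of the 10 both libraries of B lay below both of A, as in 33.0% of 2805 genes of at least 1000 normalized counts. The 10 had been chosen by their calls, so this separation is a description only. The rps-12 gene, for a small-subunit protein, had 6229 and 8341 normalized counts in the libraries of B and 22557 and 26287 in those of A. The means were 7285 ± 1493 in B and 24422 ± 2637 in A (SD, n = 2 each), so rps-12 was 3.35-fold lower in B (log2 fold change -1.75, DESeq adjusted p = 6.7e-08). For rps-29 the libraries of B had 4209 and 4020 normalized counts and those of A 9273 and 10004 (log2 fold change -1.23, DESeq adjusted p = 1.2e-06). The spread within each condition was smaller than the gap between them for both genes. Most of both rows was snoRNA, as described below: 60.4% in B and 88.8% in A for rps-12, and 93.1% and 95.5% for rps-29.

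The rps-13 gene, for a protein of the uS15 family, had 3292 and 3383 normalized counts in B and 6921 and 8113 in A (log2 fold change -1.17, DESeq adjusted p = 5.0e-05). The rpl-39 gene encodes one of the smallest ribosomal proteins, which lines the peptide exit tunnel in yeast. It had 3130 and 2964 normalized counts in B and 5975 and 7025 in A (log2 fold change -1.09, DESeq adjusted p = 0.000356). The rpl-2 gene, known as rpl-8 in the current RefSeq list, encodes a protein of the uL2 family near the catalytic centre. Its counts were too high to be split by library, and the authors' deposited table gives means of 23096 in B and 43711 in A (DESeq adjusted p = 0.000105).

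The other 6 genes were lower by between 0.69 and 0.85 on the log2 scale, with DESeq adjusted p from 0.00253 to 0.0492. Of these, rps-28 had 2518 and 2009 normalized counts in B and 3969 and 4203 in A. The rps-17 gene had 6222 and 5622 normalized counts in B and 9709 and 10791 in A. For rpl-36 there were 5225 and 5198 normalized counts in B and 8341 and 9683 in A. These 3 genes thus had no overlap between the conditions.

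The rpl-41 gene, whose current RefSeq name is rpl-36A, had 7735 and 7281 normalized counts in B and 12236 and 13721 in A. The rpl-29 gene had 5882 and 7255 normalized counts in B and 11152 and 10197 in A. The rpl-38 gene stood nearest to the threshold (DESeq adjusted p = 0.0492), with 4974 and 4086 normalized counts in B and 6906 and 7692 in A. Its conditions did not overlap either. Just outside the threshold was rps-25, with 6230 and 7704 normalized counts in B and 10819 and 12846 in A (DESeq adjusted p = 0.0984).

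**Figure D3:**
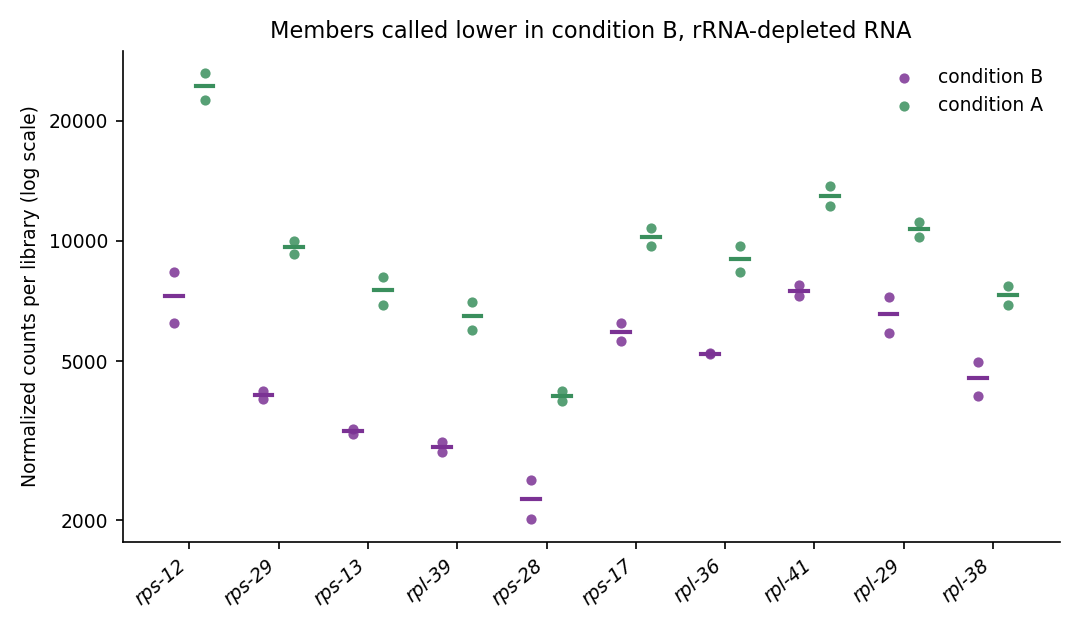
Normalized counts per library, on a log scale, of the 10 ribosomal protein genes called lower in condition B whose counts could be recovered per library. The rows of rps-12, rps-13 and rps-29 also take in snoRNAs. Points are libraries, 2 per condition, and bars their means; for rps-12 the libraries of B were at 6229 and 8341 and those of A at 22557 and 26287, and for each gene both libraries of B lie below both of A.

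The lower values reached beyond the called genes. Of the 75 genes above 0 in both conditions, 58 had a log2 fold change below 0, and the median was -0.25, beside 0.02 over all 19779 such genes and 0.09 over those of at least 1000 normalized counts. Libraries could be recovered for 56 of the 76 genes. The genes left out were those with high means in B, from 10438 normalized counts in rpl-12 upward. Above that level only rpl-10, with a mean of 10693 in B, was recovered. This selection by the value in B can tilt the counts of recovered genes toward lower in B. Both libraries of B lay below both of A in 39 of the 56 and above in 4, namely rpl-25.1, rpl-42, rps-14 and rps-6. Among 2805 genes of at least 1000 normalized counts the shares were 33.0% below and 48.4% above. By limma-voom on the recovered counts, 27 of the genes with recovered counts were called lower and 2 higher, rpl-25.1 and rpl-42, where 14.3% and 20.1% of 16665 genes were called.

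At the other end, rps-2 had the highest fold change, for which the authors' deposited table gives means of 16893 in B and 10653 in A (log2 fold change 0.67, DESeq adjusted p = 0.171). The rpl-12 gene followed rpl-25.1, at 0.22 (DESeq adjusted p = 0.992). The near-silent rpl-42 had 12.9 and 7.79 normalized counts in the libraries of B and 0 in both of A. As a share of all normalized counts, ribosomal protein genes made up 2.71% in B and 0.821% in A. The ribosomal RNA share named above went the other way, at 2.59% in B, where it lay in T27C5.18, and 67.2% in A. Shares of all normalized counts carry the same limit. Of the counts of protein-coding genes alone, they made up 3.20% in B and 4.21% in A.

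Called genes came from both subunits. Of the large subunit 6 of 45 genes were called lower, with a median log2 fold change of -0.28. Of the small subunit 5 of 31 were called lower, with a median of -0.15. The lowest value was -1.09 for rpl-39 in the large and -1.75 for rps-12 in the small subunit.

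The 3 largest falls were all in genes that hold snoRNAs. By the WBcel235 annotation, 13 of the 76 genes contain a snoRNA gene on the same strand, 19 snoRNAs in all, and 18 of these have values of their own. In rRNA-depleted RNA the rows of such hosts were at or above the summed counts of their snoRNAs in all 4 libraries in 55 of 55 host genes of the genome with recovered counts. In the following, the remainder is the count of the host less that of its snoRNAs, which takes the reads of the snoRNAs as counted for the host too. Among the 13 ribosomal protein hosts, 4 were called lower in B: rps-12, rps-29, rps-13 and rpl-2. Lower calls were made for 7 of the 63 ribosomal protein genes without a snoRNA. They were made for 2.77% of all genes and 9.52% of those of at least 1000 normalized counts. Of the 18 snoRNAs, 6 were called lower and none higher (background 2.77% and 5.54%), and 16 had a log2 fold change below 0, with a median of -0.66. Of 122 other annotated snoRNAs, 53 were called lower and 1 higher, with a median of -1.25 over those above 0 in both conditions. Lower calls were thus not particular to the snoRNAs inside ribosomal protein genes.

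For rps-12 the summed snoRNA counts differed more on the log2 scale, by -2.30, than the host row did, by -1.75. The snoRNA F54E7.10 had 1829 and 4100 normalized counts in the libraries of B and 17794 and 21072 in those of A (log2 fold change -2.71, DESeq adjusted p = 9.8e-12). The second snoRNA of rps-12, F54E7.11, had 1405 and 1462 normalized counts in B and 2038 and 2489 in A (DESeq adjusted p = 0.201). Together the pair made up 60.4% of the rps-12 count in B and 88.8% in A. The remainder was 2995 and 2779 normalized counts in B and 2725 and 2726 in A, so it was slightly above A in both libraries of B. With the snoRNA counts subtracted from every host, limma-voom called 14.1% of 16665 genes lower and 20.1% higher, and rps-12 was no longer called (log2 fold change 0.10, SE 0.09, adjusted p = 0.403).

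For rps-13 the snoRNA C16A3.11 had 1415 and 1809 normalized counts in B and 5072 and 6034 in A (log2 fold change -1.78, DESeq adjusted p = 4.9e-07). The remainder of rps-13 was 1876 and 1574 in B and 1849 and 2079 in A, and these overlapped. After subtraction rps-13 was not called by limma-voom (log2 fold change -0.13, SE 0.13, adjusted p = 0.471).

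For rps-29 nearly the whole count was snoRNA, 93.1% in B and 95.5% in A. Its snoRNA B0412.7 had 1426 and 1208 normalized counts in B and 4787 and 5869 in A (log2 fold change -2.02, DESeq adjusted p = 3.8e-06). Its other snoRNA, B0412.6, had 2418 and 2608 normalized counts in B and 4410 and 3344 in A (DESeq adjusted p = 0.132). The remainder of rps-29 was small and uneven, at 365 and 204 normalized counts in B and 75.8 and 791 in A, and gives no direction: limma-voom put it at 0.98 (SE 0.69, adjusted p = 0.308), with the ratio of the means at -0.61 on the log2 scale.

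Among the other hosts, rpl-24.1, rpl-26 and rpl-6 each hold 1 snoRNA that was called lower while the host was not. The snoRNA D1007.20 of rpl-24.1 had 1435 and 1847 normalized counts in B and 4574 and 5797 in A (DESeq adjusted p = 0.00168). The snoRNA F28C6.11 of rpl-26 had 1672 and 1495 normalized counts in B and 3060 and 3830 in A (DESeq adjusted p = 0.0329). The snoRNA R151.12, which is among 3 in rpl-6, had 2757 and 2578 normalized counts in B and 4380 and 4617 in A (DESeq adjusted p = 0.0136). The remainders had log2 fold changes of -0.01 for rpl-24.1, 0.06 for rpl-26 and -0.08 for rpl-6. The highest host count was that of rpl-7A, for which the authors' deposited table gives 45524 normalized counts in B and 76128 in A (DESeq adjusted p = 0.515), of which its snoRNA Y24D9A.9 held 38316 in B and 67339 in A. Its remainder was 6605 in B and 7964 in A.

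The hosts rps-4, rps-23 and rpl-4 had snoRNAs with log2 fold changes of -0.04, -0.02 and 0.18, and their own were between -0.02 and 0.01. Over the 12 hosts with snoRNA values, the median log2 fold change was -0.30 for the host and -0.01 for the remainder, whose range was -0.61 for rps-29 to 0.08 for rps-12. The host rpl-2 was called lower too, but its snoRNA B0250.19 has no value of its own in rRNA-depleted RNA, so no remainder can be given.

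**Figure D4:**
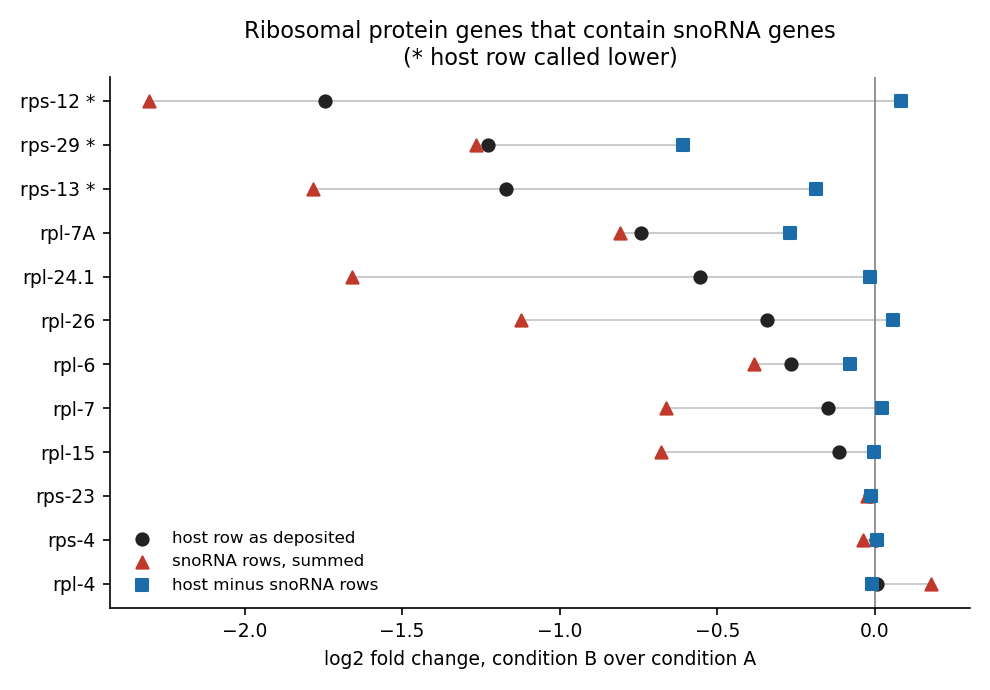
Log2 fold change of condition B over condition A in rRNA-depleted RNA for the 12 ribosomal protein genes whose contained snoRNAs have values. Circles show the host row, triangles its summed snoRNA rows and squares the host less its snoRNAs, and an asterisk marks hosts called lower. For rps-12 the host is at -1.75, the snoRNAs at -2.30 and the remainder at 0.08; the remainders of 11 hosts lie between -0.27 and 0.08, and that of rps-29 is at -0.61.

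In poly(A) RNA the hosts did not stand lower than the rest. Of the 13 hosts, 1 was called higher, rpl-26, and the median log2 fold change was 0.01, beside -0.29 for the 60 tested genes without a snoRNA. The rps-12 gene had 23097 FPKM in RNAi and 11413 FPKM in wild type in the authors' deposited table (Cuffdiff q = 0.156). The rps-13 gene had 13545 FPKM in RNAi and 9643 FPKM in wild type in the authors' deposited table (Cuffdiff q = 0.493). For rps-29 it was 13201 FPKM in RNAi and 23332 FPKM in wild type in the authors' deposited table (Cuffdiff q = 0.186). None of these 3 passed the test.

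The 7 called genes without a snoRNA had short transcripts. Their spliced lengths in the WBcel235 annotation ran from 236 bases for rpl-39 to 463 bases for rps-17, with a median of 296, against a median of 562.5 for the 56 uncalled genes without a snoRNA. Hosts left out, 6 of the 12 ribosomal protein genes up to 400 bases were called lower, with a median log2 fold change of -0.69. Of the 17 without a snoRNA from 400 to 500 bases 1 was called lower, with a median of -0.28. Of the 22 without a snoRNA from 500 to 700 bases and the 11 longer ones none was called, with medians of -0.24 and -0.03. The called hosts had 265 bases in rps-29, 494 in rps-12, 507 in rps-13 and 864 in rpl-2.

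Other protein-coding genes of at least 1000 normalized counts were counted in the same way. Up to 400 bases 3 of 81 (3.70%) were called lower and 18 higher, with a median log2 fold change of 0.20. From 400 to 500 bases 1 of 43 (2.33%) was called lower, with a median of 0.14. From 500 to 700 bases 25 of 101 (24.8%) were called lower, with a median of -0.07, and from 700 to 2000 bases 103 of 1117 (9.22%), with a median of -0.08. The medians of these other genes were thus lower in the longer bins up to 2000 bases, where those of the ribosomal protein genes were higher. Spearman's rho between length and log2 fold change was 0.55 over the 62 ribosomal protein genes without a snoRNA, which reach 1334 bases. It was 0.38 over 2655 other genes of that level at any length, including longer ones, so the 2 values cover unlike ranges. Both are descriptions across genes that share their libraries. Between the libraries of one condition rho was -0.14 in B and -0.31 in A over 48 of the ribosomal protein genes without a snoRNA. In poly(A) RNA it was -0.08 over the 73 tested ribosomal protein genes. The part of transcript length in the calls was not tested.

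**Figure D5:**
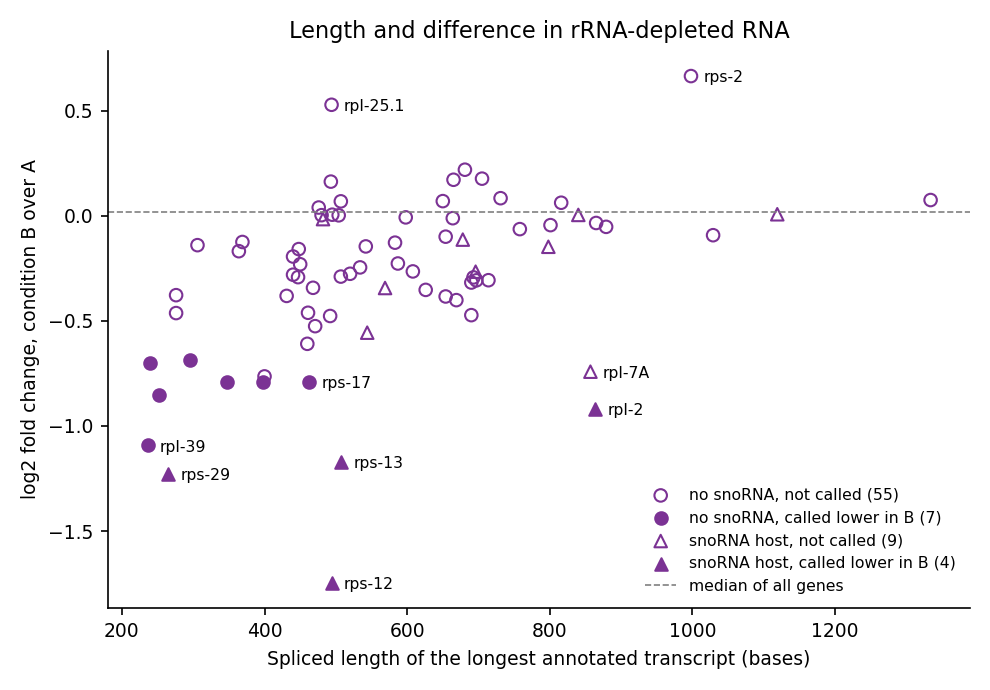
Log2 fold change of condition B over condition A in rRNA-depleted RNA against the spliced length in bases of each ribosomal protein gene (75 genes above 0 in both conditions). Filled symbols are genes called lower in B, triangles are snoRNA hosts and the dashed line is the median of all genes. The 7 filled circles lie between 236 and 463 bases.

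Genes that act with the ribosome were read the same way. Of 9 genes for ribosomal proteins under other names and factors bound to the ribosome, 1 was called higher and 1 lower in CstF50 RNAi. The background was 3.12% higher and 13.6% lower over all tested genes, and 11.1% and 9.12% over those of at least 1000 FPKM. The higher one was rla-1, for an acidic stalk protein of the large subunit, with 22745 FPKM in RNAi and 2528 FPKM in wild type in the authors' deposited table (log2 fold change 3.17, implied SE 0.56, Cuffdiff q = 6.1e-06). The lower one was icd-1, for a subunit of the nascent polypeptide-associated complex, with 2298 FPKM in RNAi and 7426 FPKM in wild type in the authors' deposited table (Cuffdiff q = 0.0487). In rRNA-depleted RNA rla-2, for another stalk protein, was called higher, with 2193 and 2026 normalized counts in B and 1263 and 1465 in A (DESeq adjusted p = 0.0179). Higher calls in B were made for 5.54% of all genes and 12.1% of those of at least 1000 normalized counts. The median log2 fold changes of the 9 were -0.46 in poly(A) RNA and 0.08 in rRNA-depleted RNA.

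Of 42 ribosome biogenesis genes listed, 40 were found. In poly(A) RNA none of these was called higher and 9 were called lower, beside 3.12% and 13.6% of all tested genes. Their median log2 fold change was -0.96, near the -0.90 of all tested genes. Among the 9 were larp-1, whose human counterpart binds mRNAs of ribosomal proteins, with 14.8 FPKM in RNAi and 63.5 FPKM in wild type in the authors' deposited table (Cuffdiff q = 0.000539). Another was the exosome subunit gene exos-4.1, with 67.9 FPKM in RNAi and 266 FPKM in wild type in the authors' deposited table (Cuffdiff q = 0.00292). The other 7 were dao-5, exos-2, lpd-6, ncl-1, nol-6, nol-10 and pro-3, with Cuffdiff q from 0.0124 to 0.0394. Relative to the median gene none of the 9 passed.

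In rRNA-depleted RNA 4 of the 40 were called lower and 1 higher. The background was 2.77% and 5.54% over all genes, and 9.52% and 12.1% over those of at least 1000 normalized counts. The lowest was nol-56, for a core protein of box C/D snoRNA particles and itself a host of 4 snoRNAs, with 6796 and 8137 normalized counts in B and 25707 and 29338 in A (log2 fold change -1.88, DESeq adjusted p = 1.5e-13). The RNA polymerase I subunit gene rpoa-12 had 420 and 367 normalized counts in B and 1095 and 1080 in A (DESeq adjusted p = 2.6e-06). The other 2 were exos-3 and nola-3, at -1.02 and -0.71 on the log2 scale, and the higher one was nog-1, at 0.59. Beside the ribosomal protein genes, with a median of -0.25, the biogenesis genes had a median log2 fold change of 0.02.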

How the data were processed

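Ribosomal protein genes, paralogue pairs, hosts and lists were chosen with earlier results of these data known. The named genes are those called, the pairs, the 3 hosts of the rule, the 3 highest and 3 lowest fold changes and the genes next to each threshold. The authors deposited 1 FPKM per group with p-value and q-value for poly(A) RNA, in Cuffdiff layout per the file headers. For rRNA-depleted RNA the authors deposited mean normalized counts per condition with p-value and adjusted p-value, per the file headers. Per the submitters' processing notes, build ce10, Bowtie and DESeq were used, with no version given. The sources used here do not give the counter, annotation or filters. The 25858 rows for rRNA-depleted RNA name 25640 genes, each used once. Genes were called at the authors' adjusted p under 0.05. Fold changes were recomputed from group values. The implied SE is the log2 fold change divided by the normal deviate that their p-value gives.

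Each rRNA-depleted value is the mean of 2 whole counts, each divided by its size factor (3.6322 and 1.5407 in B, 0.7388 and 0.2491 in A). Unique solutions within 0.6 units of the last printed digit (1.5 for means under 100) were kept, for 25403 genes in B and 25479 in A. Means above 30000 were not searched. The recovery was checked on simulated means, and the fit on simulated counts. Counts with a mean of at least 10 were fitted by limma-voom (limma 3.58.1, R 4.3.3) with TMM scaling. Members were matched to Ensembl release 115 and RefSeq (WBcel235) by sequence name for strand, length and snoRNAs. Tables were made with Python 3.11.15 and pandas 2.3.3.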

Additional observations from a re-analysis of the deposited data

How the results depend on the processing

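The 6 poly(A) genes called higher in CstF50 RNAi became 17 relative to the median gene, 3 adjusted over all rows, 3 over genes at loci of their own and 3 at q under 0.01. They were 5 without members overlapping an RNA gene, 7 at q under 0.1 and 6 with log2(FPKM + 1) or a minimum of 10 FPKM. No gene was called lower under these, except 2 at q under 0.1. The 11 rRNA-depleted genes called lower in condition B became 27 by limma-voom with TMM, 30 with the authors' size factors, 31 without a filter on low counts, 22 with snoRNA counts subtracted from hosts and 7 without members overlapping an RNA gene. They were 11 relative to the median gene, 9 at adjusted p under 0.01 and 12 under 0.1. Genes called higher in B were 0 under the settings without a refit and 2 under each of the 4 limma-voom fits. Lower calls over all genes were 710 of 25640 by the authors' adjusted p. They were 2375 of 16665 with TMM, 2462 of 16665 with the authors' size factors, 2592 of 25367 unfiltered and 2353 of 16665 after subtraction. Higher calls over all genes were 1420 by the authors' adjusted p, and 3353, 3340, 3249 and 3346 in the same 4 fits. Lower calls thus rose over all genes too. Leaving out 1 library at a time gave between 14 and 42 genes lower and between 0 and 10 higher; the count was 42 lower without the first library of B, and 33 lower and 10 higher without the second. Over all genes the calls in these fits ran from 1021 of 17006 to 2986 of 14933 lower, and from 1848 of 17006 to 4413 of 16650 higher, highest in the fits without a library of B. The lone library is there assumed to vary like the other condition. The 10 lower calls with recovered counts stayed in every limma-voom fit, except rps-12, rps-13 and rps-29 after subtraction, where rps-12 turned to 0.10 and rps-29 to 0.98 (log2). With 1 library of B left out, rpl-13 lay between -0.12 and 0.15 and rps-3 between -0.23 and 0.14, with both turned above 0 without the second (limma-voom adjusted p = 0.0200 and 0.0133). The cause was not tested. The limma-voom fits other than that with TMM, and the poly(A) count without RNA overlaps, were chosen after seeing the data. They stand in for the planned quasi-likelihood count test, which was not run because the means of B did not pass the check on whole-read steps. No paired analysis was possible because the recovered libraries carry no replicate numbers and the poly(A) table has 1 value per group. Poly(A) depth is unknown, and 20 members, all with high means in B, have no counts per library.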

Other observations

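Small nucleolar RNAs outside the ribosomal protein genes were lower in condition B as well. Of 122 other annotated snoRNA genes with a row in the rRNA-depleted table, 53 were called lower in B and 1 higher at a DESeq adjusted p under 0.05 in the authors' deposited table, beside 2.77% and 5.54% of all genes. The median log2 fold change of those above 0 in both conditions was -1.25, and that of the 18 snoRNAs inside ribosomal protein genes was -0.66. This difference between the medians was not tested.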
